A study of Mus musculus with 12 samples.

Results

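The genes described here are 34 that macrophages express, taken by symbol from a list of pan-macrophage, resident, lipid-associated and activation genes, among 55536 genes in the count table. All 34 were found, 1 identifier each, and 33 had enough counts in the tumours to be tested. The exception was Marco, a scavenger receptor of some resident macrophages. The study set tumours with an engineered translocation against tumours in which the same fusion is expressed from another locus. EWSR1-ATF1 joins an RNA-binding protein of the FET family to a CREB family transcription factor and is the driver of clear cell sarcoma, a tumour of deep soft tissue that makes melanocyte proteins. Translocation tumours (n = 5) carried HprtCre with Ewsr1-loxP and Atf1-loxP, so that Cre joins the mouse genes themselves. Rosa26 tumours (n = 6) carried Rosa26-LSL-EWSR1-ATF1, a fusion transgene that stays silent until Cre removes a stop cassette. The source of Cre is not given in the Rosa26 genotype label. Skeletal muscle labelled WT was represented by 1 library and gives the level of these genes in a normal tissue. All tumours were untreated with drugs and were collected when the tumour had made the mouse ill. The labels give no ages and do not say that each library came from its own animal, so the p-values measure the spread between these libraries.

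Macrophages arise from blood monocytes or from precursors seeded before birth, and in mice both kinds depend on the receptor Csf1r and its ligands. They recognise antibody-coated and dying material with Fc and scavenger receptors, which signal through adapters that carry an ITAM, a short tyrosine motif that recruits the kinase Syk. Macrophages of solid tumours often carry resident-type scavenger receptors, lipid-handling genes or genes of inflammatory and alternative activation. RNA from whole tumour pieces was measured, so a lower level can mean fewer macrophages or less RNA per macrophage, and these cannot be told apart. Several genes of the list are not made by macrophages alone: in mice Lyve1 is also a gene of lymphatic endothelium, Lgals3, Apoe and Csf1 are made by many cells, and Nos2 and Arg1 can be made by other myeloid and stromal cells.

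Levels are CPM, a gene's count per 1e6 counts of its library, after TMM scaling over all 12 libraries. The libraries of translocation tumours held 2.96 M to 21.2 M counts, those of Rosa26 tumours 6.82 M to 21.5 M, and the muscle library 25.04 M. Translocation tumour 2 and Rosa26 tumour 4 gave 37.8% and 30% of their counts to genes with ribosomal sequence, where no other tumour exceeded 7.38%. In Rosa26 tumour 1, 3.77% of counts came from muscle markers, against 10.3% in the muscle library and at most 0.229% in the other tumours. Atf1, at the translocated locus, ranged from 34.1 to 64.8 CPM in the translocation tumours and from 19.7 to 25.6 CPM in the Rosa26 tumours. Muscle held 95.7 CPM of Atf1 on this scale, above every tumour. By Xist and Y-linked genes, 4 of 5 translocation tumours and 2 of 6 Rosa26 tumours were female. Translocation tumours 2 and 5 share a number in their titles but read as opposite sexes. Rosa26 tumours 5 and 6 have titles that differ in the last digit. The title of the muscle library begins with the number of translocation tumour 1, and whether those 2 libraries share an animal is not known.

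Spi1 encodes PU.1, the ETS factor that sets the macrophage lineage, and its core binding sequence GAGGAA was looked for in the 250 bases before the start of each gene. RefSeq promoters of build GRCm38.p6 were used, on either strand (TTCCTC on the other). A promoter within 500 bases of the GENCODE start was at hand for 22 of the 34 genes, taking the promoter nearest that start where there were several, and 11 of these 22 (50%) held the motif. Counted in the same way, 22.6% of 16751 genes did, and 23.3% of all 32851 promoters. A match of 6 letters is a description and is no evidence of binding. The promoters of 4 genes on which the results below turn are given 5′ to 3′ on the gene's own strand, with the motif in capitals. They show a pan-macrophage gene with 1 match, a scavenger receptor gene with 3 matches on the other strand, a scavenger receptor gene with none and a lipid gene with 1.
Cd68 (chr11:69666171-69666420, minus strand): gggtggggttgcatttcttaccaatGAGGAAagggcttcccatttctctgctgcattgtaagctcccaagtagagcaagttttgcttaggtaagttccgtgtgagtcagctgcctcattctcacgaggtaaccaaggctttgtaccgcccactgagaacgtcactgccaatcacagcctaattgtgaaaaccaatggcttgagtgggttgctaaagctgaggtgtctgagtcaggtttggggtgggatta
Mrc1 (chr2:14229164-14229413, plus strand): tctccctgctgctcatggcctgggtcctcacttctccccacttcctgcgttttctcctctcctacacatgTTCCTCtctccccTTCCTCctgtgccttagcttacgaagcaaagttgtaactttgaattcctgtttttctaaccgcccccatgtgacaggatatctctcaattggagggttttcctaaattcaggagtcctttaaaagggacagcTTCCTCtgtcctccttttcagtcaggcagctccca
Cd163 (chr6:124304401-124304650, plus strand): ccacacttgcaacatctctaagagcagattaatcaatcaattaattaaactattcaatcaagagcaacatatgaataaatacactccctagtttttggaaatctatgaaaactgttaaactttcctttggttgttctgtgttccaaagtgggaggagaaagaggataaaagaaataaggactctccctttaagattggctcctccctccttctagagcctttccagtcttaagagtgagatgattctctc
Apoe (chr7:19699189-19699438, minus strand): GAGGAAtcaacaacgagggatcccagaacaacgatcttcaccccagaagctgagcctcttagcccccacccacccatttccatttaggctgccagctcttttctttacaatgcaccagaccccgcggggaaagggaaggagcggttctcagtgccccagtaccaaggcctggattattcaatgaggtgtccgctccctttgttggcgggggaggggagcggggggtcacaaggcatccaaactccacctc
Mrc1 and Cd163 were among the members that varied most between tumours, as described below. Whether the matches have any part in that spread was not tested.

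Most of the macrophage genes, though not all, were above muscle in every tumour. Of the 34 genes, 18 (52.9%) were at least 2-fold above the muscle library in every one of the 11 tumours, after 0.5 CPM was added to each value. Over all 22184 genes, 6.63% met the same rule. With 1 muscle library there is no test. The muscle library had a TMM factor of 0.409, against 0.771 to 1.26 in the tumours, and without these factors the folds over muscle of the members were 1.09 to 2.66 times as large. The 18 comprised 8 of 15 pan-macrophage genes, all 6 ITAM adapter and Fc receptor genes, 1 of 7 resident and scavenger genes, 2 of 3 lipid-associated genes and 1 of 3 activation genes. In 25 of the 34 genes all 11 tumours lay above muscle by any amount, as in 19.1% of the 22184 genes. The number of members above muscle ran from 27 in translocation tumour 5 to 33 in translocation tumours 1 and 4 and in Rosa26 tumour 1.

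Arg1, the arginase of alternatively activated macrophages, differed most from muscle. It was 279, 558, 37.1, 81.5 and 40.4 CPM in translocation tumours 1 to 5, and 11.4 CPM at the lowest, 77.8 CPM at the median and 304 CPM at the highest of the Rosa26 tumours, against 1.27 CPM in muscle. The mean over the tumours was 81.1-fold the muscle level, or 141-fold without scaling factors. Folr2, a folate receptor of resident macrophages, had a tumour mean 17.4-fold above muscle, and Fcgr2b, the inhibitory Fc receptor, 15.1-fold. Mrc1, the mannose receptor CD206, had 14.1-fold, Apoe, which carries lipid out of cells, 12.3-fold, and Adgre1, the F4/80 antigen, 11.7-fold. Csf1r was 9.17-fold and Cd68, a lysosomal glycoprotein used to stain macrophages, 2.58-fold above muscle (23.8-fold and 6.47-fold without scaling factors). Folr2 rested on 9 counts in muscle and did not meet the 2-fold rule. It was 1.05 CPM in Rosa26 tumour 4, against 0.878 CPM in muscle. Aif1 and Fcgr1 rested on 2 counts each in muscle and are given no fold.

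Lgals3, which encodes the sugar-binding protein galectin-3, went the other way. It was the 1 member at least 2-fold below muscle in every tumour, where 8.87% of the 22184 genes met that rule. Muscle held 548 CPM, translocation tumours 1 to 5 held 249, 219, 192, 87.4 and 64.7 CPM, and the Rosa26 tumours ran from 56.2 to 108 CPM. On this scale both tumour groups lay entirely below muscle. Without scaling factors muscle held 224 CPM of Lgals3, and translocation tumours 1 and 3, with 288 and 237 CPM, lay above it. On the scaled values 7 other members were above muscle in some tumours and below it in others, among them Cd68, Csf1 and Lyz2, each above it in 10 of 11 tumours. Lyve1, a hyaluronan receptor, was above muscle in 7 of 11 tumours, Cd163, the haemoglobin scavenger receptor, in 8, Chil3, a chitinase-like protein, in 8, and Nos2, the inducible nitric oxide synthase, in 6. Without scaling factors Cd68, Csf1 and Lyz2 lay above muscle in all 11 tumours, Nos2 in 10, and Lyve1, Cd163 and Chil3 in 9 each. Marco had a count of 0 in muscle and was above 0 in 7 tumours.

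**Figure D1:**
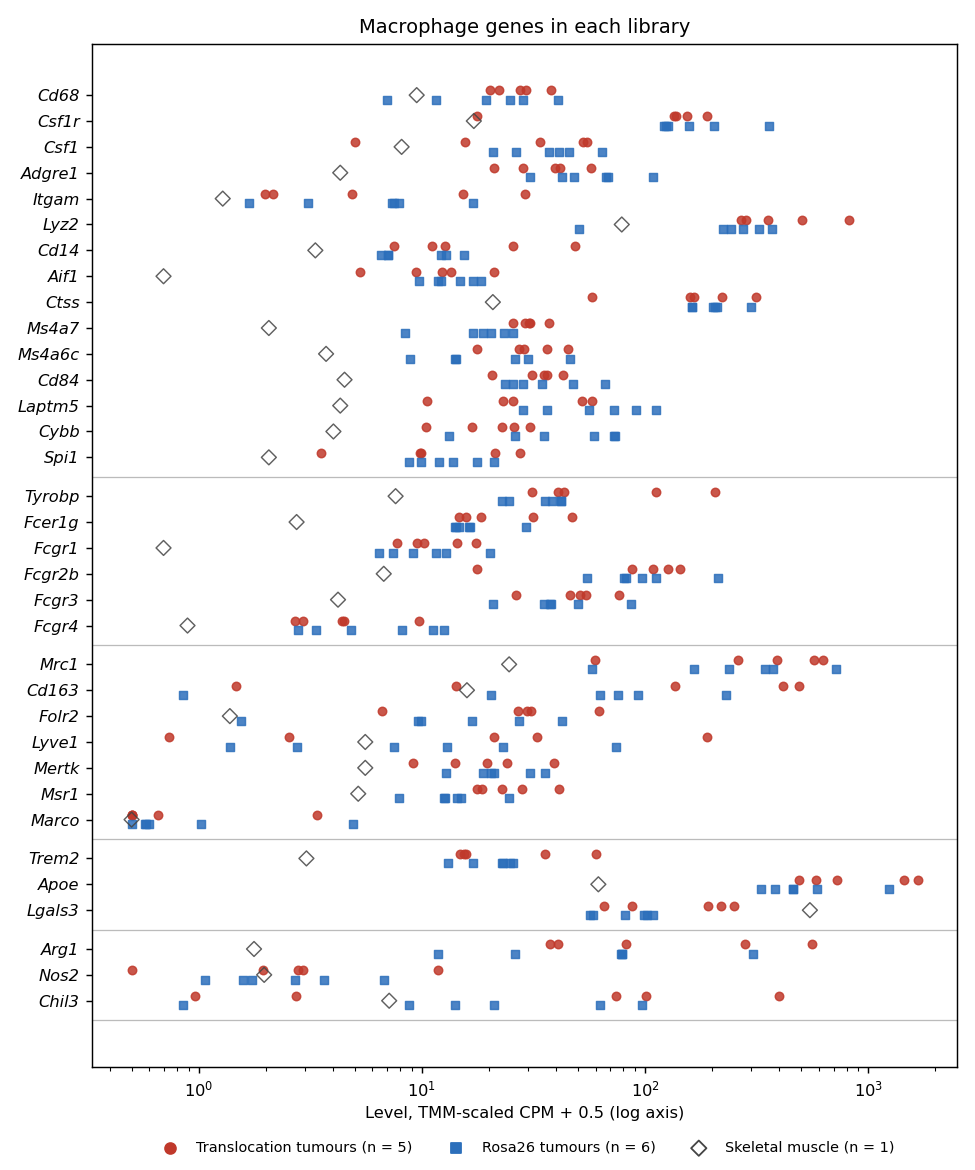
Level of each macrophage gene in every library, as TMM-scaled CPM plus 0.5 on a log axis, with genes in rows and horizontal lines between the groups of genes. Circles are translocation tumours (n = 5), squares Rosa26 tumours (n = 6) and open diamonds the muscle library; most diamonds lie left of all tumours, Lgals3 in muscle (548 CPM) lies right of them, and Cd163, Lyve1 and Chil3 spread the most.

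Within the tumours the abundance of the members differed greatly. Per kilobase of exon, the mean level over the tumours was highest for Apoe (356 CPM per kilobase), Lyz2, which encodes lysozyme (256), and Ctss, a lysosomal protease (144). Tyrobp, the ITAM adapter DAP12, followed with 86.3 CPM per kilobase, and the scavenger receptor Mrc1 had 54.3. Csf1r, the receptor that macrophages need to survive, had 27.1 CPM per kilobase. The lowest were Itgam, the CD11b integrin chain, with 1.67, Nos2 with 0.659 and Marco with 0.387 CPM per kilobase. Marco was 2.88 CPM in translocation tumour 1 and 4.39 CPM in Rosa26 tumour 1 and at most 0.524 CPM in the other tumours.

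Between the genotypes no macrophage gene passed the test. With Benjamini-Hochberg adjusted p-values from edgeR's quasi-likelihood test over 17021 genes, 0 of the 33 tested members reached an adjusted p of 0.05 or less. Of all genes tested 460 (2.7%) did, 194 higher (1.14%) and 266 lower (1.56%) in translocation tumours. At an unadjusted p below 0.05, 5 members (15.2%) had positive and 1 (3.03%) a negative fold change, where all genes tested had 14.3% and 10.4%. The share with positive fold changes was 66.7% (22 of 33), against 53.2% of all genes. The median log2 fold change, translocation over Rosa26, was 0.47 over the members and 0.07 over all genes. With the DESeq2 Wald test 1 of 33 members passed, where 14.3% of all genes did, and with limma voom 2 passed, where 15.6% of all genes did. Their values are given with those genes.

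The 15 pan-macrophage and core myeloid genes had no common direction, with 7 positive and 8 negative log2 fold changes and a median of -0.13. Cd68 was 37.4, 28.9, 19.7, 21.6 and 27.1 CPM in translocation tumours 1 to 5, and 6.47, 21.7 and 40.1 CPM at the lowest, median and highest of the Rosa26 tumours. The groups overlapped, with Rosa26 tumour 5 highest and Rosa26 tumour 4 lowest, and the log2 fold change was 0.37 ± 0.41 (SE, edgeR adjusted p = 0.608). Csf1r was 154, 189, 134, 137 and 17.2 CPM in the translocation tumours and 121, 142 and 358 CPM at the lowest, median and highest of the Rosa26 tumours. Translocation tumour 5 stood far below the other 10 tumours. On the scaled values it was near the muscle level of 16.6 CPM. Without scaling factors it held 17.4 CPM, against 6.79 CPM in muscle. The log2 fold change was -0.48 ± 0.51 (edgeR adjusted p = 0.595). Exons of Csf1r lie on the strand opposite to Hmgxb3, and no source used here says whether counting used strand.

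Csf1, the main ligand of Csf1r, also was lowest in translocation tumour 5. It was 52.0, 54.3, 33.4, 15.1 and 4.51 CPM in the translocation tumours and ran from 20.2 to 63.7 CPM in the Rosa26 tumours, with 7.61 CPM in muscle. The log2 fold change was -0.24 ± 0.53 (edgeR adjusted p = 0.819). Adgre1 was 27.9, 41.1, 39.2, 56.6 and 20.6 CPM in the translocation tumours and 30.1, 56.9 and 108 CPM at the lowest, median and highest of the Rosa26 tumours. Its groups overlapped, and its log2 fold change was -0.66 ± 0.35 (edgeR adjusted p = 0.265). Spi1 had a log2 fold change of 0.09 (edgeR adjusted p = 0.930).

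Ms4a7, a membrane protein of the MS4A family found on macrophages, was the 1 member (3.03%) whose groups did not overlap, where 2.2% of all tested genes lay wholly higher and 3.12% wholly lower in the translocation tumours. It was 25.1, 28.4, 29.9, 36.7 and 29.6 CPM in the translocation tumours, and 7.87, 19.1 and 25.01 CPM at the lowest, median and highest of the Rosa26 tumours. The gap between the groups was narrow, between 25.01 CPM in Rosa26 tumour 1 and 25.1 CPM in translocation tumour 1. The log2 fold change of 0.74 ± 0.27 missed the threshold (edgeR adjusted p = 0.128), and passed with limma voom (0.77, adjusted p = 0.0225). Cd14, the co-receptor for lipopolysaccharide, had 1.14 ± 0.49 (edgeR adjusted p = 0.174) and was highest in translocation tumour 5 at 48.3 CPM, the tumour with the least Csf1r. Lyz2 had 0.90 ± 0.47 (edgeR adjusted p = 0.258). Itgam had 0.57, Aif1, an actin-binding protein used to stain macrophages, -0.15, Ctss -0.13, Ms4a6c 0.47 and Cd84 -0.14, with edgeR adjusted p from 0.511 to 0.864. Ms4a6c overlaps another gene model and has close relatives in Ms4a6b and Ms4a6d, so its reads may be shared with them.

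On the negative side stood Cybb and Laptm5. Cybb, the catalytic chain of the phagocyte NADPH oxidase, was 25.4, 16.2, 30.1, 22.4 and 9.90 CPM in the translocation tumours, and 12.8, 46.6 and 73.0 CPM at the lowest, median and highest of the Rosa26 tumours. Rosa26 tumours 1, 3 and 5 were highest, and Rosa26 tumours 2 and 6 lay among the translocation tumours. The log2 fold change was -1.10 ± 0.45 (edgeR adjusted p = 0.155). Laptm5, a lysosomal membrane protein of blood cells, had -0.93 ± 0.48 (edgeR adjusted p = 0.254). With sex as a covariate, where 14.9% of all genes passed, Laptm5 did so too (-1.59, edgeR adjusted p = 0.0489). Laptm5, Cybb and Spi1 are not restricted to macrophages among blood cells. The B-cell markers summed to 248 CPM in Rosa26 tumour 1 and to 0.699 to 5.25 CPM in the other tumours. The T-cell markers summed to 1.77 to 22.03 CPM in the translocation tumours and to 6.07 to 76.5 CPM in the Rosa26 tumours. The sum of 22.03 CPM, in translocation tumour 3, held 21.4 CPM of Cd4, and the other T-cell markers were 0.0811 to 0.122 CPM each. The part of B and T cells in the levels of Laptm5, Cybb and Spi1 was not tested.

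Among the ITAM adapters and Fc receptors 4 log2 fold changes were positive and 2 negative, with a median of 0.18. Tyrobp (ENSMUSG00000030579, chromosome 7, 30413760 to 30417585, mm10, plus strand) pairs with Trem2 and other receptors and had the smallest p of all members. It was 112, 206, 40.1, 42.6 and 30.5 CPM in the translocation tumours, and 22.4, 36.3 and 41.7 CPM at the lowest, median and highest of the Rosa26 tumours. Translocation tumours 1 and 2 stood well above every other tumour, and the other 3 lay within or close to the Rosa26 range. The log2 fold change was 1.40 ± 0.48 (edgeR adjusted p = 0.105), and Tyrobp passed with the DESeq2 Wald test (1.39, adjusted p = 0.0441) and with limma voom (1.28, adjusted p = 0.0450).

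Fcer1g, the common gamma chain that Fc receptors share, had a log2 fold change of 0.60 ± 0.36 (edgeR adjusted p = 0.322). The activating receptors Fcgr1, Fcgr3 and Fcgr4 had 0.12, 0.24 and -0.55, and the inhibitory Fcgr2b had -0.09, none past the threshold. Fcgr2b and Fcgr3 are close in sequence over their outer parts, so the split of reads between them is uncertain. In translocation tumour 5 Fcgr2b was 17.1 CPM, below the other tumours, which ranged from 54.7 to 212 CPM.

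Of the 6 resident and scavenger genes tested, 5 had positive and 1 a negative log2 fold change, with a median of 0.87. Mrc1 (ENSMUSG00000026712, chromosome 2, 14229392 to 14332057, mm10, plus strand) was 573, 629, 259.6, 389 and 59.5 CPM in the translocation tumours, and 57.5, 290.5 and 719 CPM at the lowest, median and highest of the Rosa26 tumours. Each group held 1 tumour with a level near 60 CPM, translocation tumour 5 and Rosa26 tumour 4, and the log2 fold change was 0.33 ± 0.64 (edgeR adjusted p = 0.789). Cd163 (ENSMUSG00000008845, chromosome 6, 124304656 to 124330527, mm10, plus strand) was 413, 488, 13.7, 136 and 0.976 CPM in the translocation tumours, and 0.350, 68.7 and 231 CPM at the lowest, median and highest of the Rosa26 tumours. Its lowest levels were in those same tumours, and its log2 fold change of 1.45 ± 1.26 was little larger than its error (edgeR adjusted p = 0.508). Folr2 was lowest in the same pair, at 6.13 CPM in translocation tumour 5 and 1.05 CPM in Rosa26 tumour 4.

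Lyve1 was 32.3, 189, 2.03, 20.5 and 0.232 CPM in the translocation tumours, and 0.874, 9.73 and 73.5 CPM at the lowest, median and highest of the Rosa26 tumours. Translocation tumour 2 and Rosa26 tumour 5 were highest, and without translocation tumour 2 the log2 fold change of 1.35 ± 1.31 (edgeR adjusted p = 0.558) turned to -0.48. The lymphatic endothelial markers, a list without Lyve1, summed to 9.34 to 119 CPM in the translocation tumours and to 101 to 286 CPM in the Rosa26 tumours. Pdpn alone held 115 of the 119 CPM in translocation tumour 2 and 260 of the 286 CPM in Rosa26 tumour 2. It also held 75.2 of the 101 CPM in Rosa26 tumour 4, so these sums mostly describe Pdpn. Prox1, which defines that endothelium, had means of 0.210 and 0.827 CPM, and Ccl21a was at 0 in every tumour. Flt4, the receptor VEGFR3 of the same list, fell, with a log2 fold change of -2.51 (edgeR adjusted p = 0.0283), from 21.8 to 31.7 CPM in Rosa26 tumours 2 to 6 and 7.39 CPM in Rosa26 tumour 1 to 1.21 to 8.03 CPM in the translocation tumours. The Flt4 call was lost without translocation tumour 1 or 1 of Rosa26 tumours 3, 5 and 6, with edgeR adjusted p from 0.0652 to 0.0844. The call was also lost with Rosa26 tumours 5 and 6 summed (edgeR adjusted p = 0.0640). Leaving out translocation tumours 2 and 5 and Rosa26 tumour 4 gave an edgeR adjusted p of 0.0644. Flt4 was chosen after its values were seen. The 6 general endothelial markers had 1 positive and 5 negative log2 fold changes, with a median of -1.15, and 0 passed. The part of lymphatic endothelium in the Lyve1 levels was not tested. Msr1, the class A scavenger receptor, had a log2 fold change of 0.89 ± 0.33 (edgeR adjusted p = 0.133), and Mertk, a receptor for dying cells, had -0.09.

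The 3 lipid-associated genes had positive log2 fold changes with a median of 0.83. Apoe (ENSMUSG00000002985, chromosome 7, 19696109 to 19699188, mm10, minus strand) was 1675, 1454, 582, 724 and 488 CPM in the translocation tumours, and 329.5, 459 and 1242 CPM at the lowest, median and highest of the Rosa26 tumours. The groups overlapped through Rosa26 tumours 3 and 5, and the log2 fold change was 0.83 ± 0.47 (edgeR adjusted p = 0.291). Lgals3 had 1.0 ± 0.37 (edgeR adjusted p = 0.129), with translocation tumours 1, 2 and 3 above all Rosa26 tumours and translocation tumours 4 and 5 among them. Trem2, the lipid-sensing receptor that signals through Tyrobp, was 35.0, 59.5, 14.3, 15.0 and 15.2 CPM in the translocation tumours and ran from 12.5 to 25.2 CPM in the Rosa26 tumours. Its 2 highest tumours were those highest in Tyrobp, and its log2 fold change was 0.47 ± 0.41 (edgeR adjusted p = 0.506).

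The 3 activation genes had positive log2 fold changes with a median of 1.11 and wide errors. Arg1 had a log2 fold change of 1.11 ± 0.87 (edgeR adjusted p = 0.455), Chil3 1.84 ± 1.34 (edgeR adjusted p = 0.423) and Nos2 0.63 ± 0.86 (edgeR adjusted p = 0.688). With each tumour left out in turn they ran from 0.28 to 1.94 for Arg1, from 0.45 to 2.50 for Chil3 and from -0.53 to 1.21 for Nos2. Chil3 was 100.02, 399.5, 2.23, 73.9 and 0.465 CPM in the translocation tumours, and 0.350, 17.1 and 96.0 CPM at the lowest, median and highest of the Rosa26 tumours. Chil3 has a near copy, Chil4, which was at most 4.38 CPM. Nos2 was at most 11.3 CPM in any tumour and had a count of 0 in translocation tumour 2, where 3 counts, the limit that a count of 0 allows, are 1.31 CPM.

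**Figure D2:**
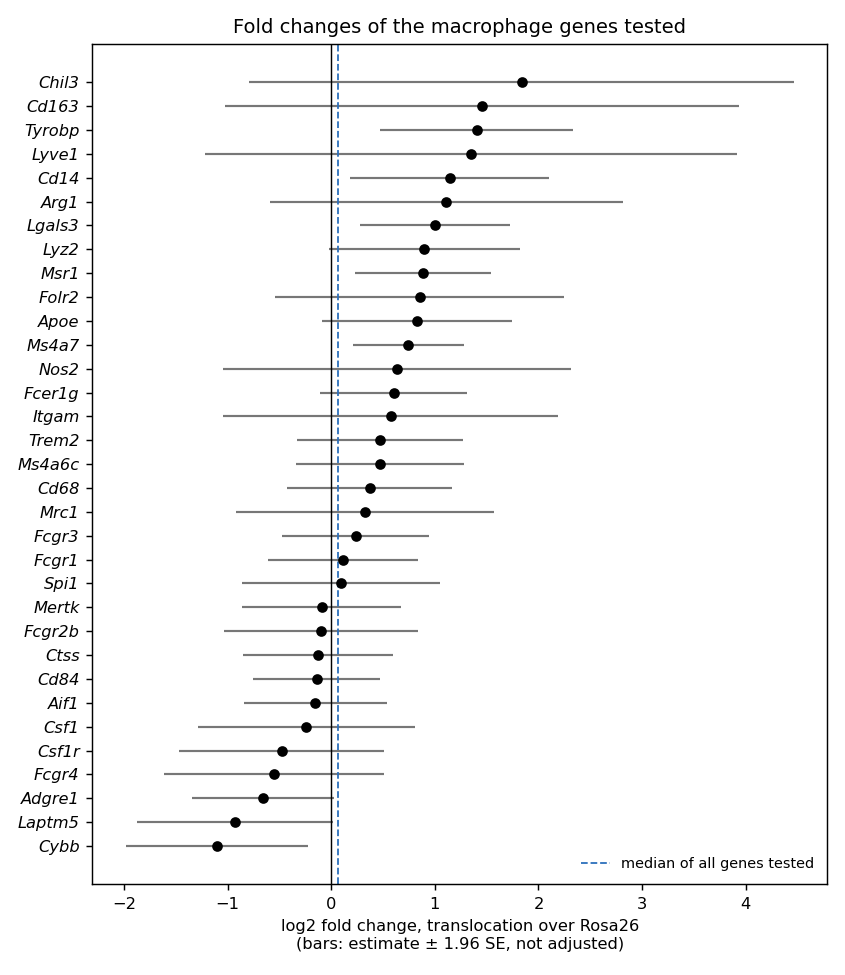
Log2 fold change, translocation over Rosa26, of the 33 macrophage genes tested, in order of size, with bars for the interval around each estimate, not adjusted. The dashed line is the median over all genes tested (0.07); Cybb lies lowest at -1.10 and Chil3 highest at 1.84, with bars several log2 units wide for Chil3, Cd163 and Lyve1.

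Fold changes were lower in genes with longer exons, over all genes tested and over the macrophage genes. Spearman's rho between log2 fold change and exon length was -0.26 over the 17021 genes and -0.25 over the 33 members, given as a description over genes that share the same libraries. Members of at most 2642 bp had 13 of 16 positive fold changes with a median of 0.71, and longer members 9 of 17 with a median of 0.09. Tyrobp, at 667 bp, is the shortest member and had the smallest p. The part of length in the fold changes was not tested.

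The same few tumours were highest or lowest in many macrophage genes. Of the 33 members tested, translocation tumour 1 had the highest level of the 11 tumours in 8, translocation tumour 2 in 9 and Rosa26 tumour 5 in 9. Translocation tumour 5 had the lowest level in 12 members and Rosa26 tumour 4 in 11. Median ranks of the members, from 1 for the lowest tumour to 11 for the highest, were 10 in each of the former 3 tumours, 2 in translocation tumour 5 and 3 in Rosa26 tumour 4. The members summed to between 1361 and 5766 CPM in the translocation tumours and to between 1614 and 4641 CPM in the Rosa26 tumours, with 853 CPM in muscle. Translocation tumour 2 and Rosa26 tumour 4 are the libraries with the most ribosomal sequence, and they stood near opposite ends of this order.

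Low tumours were not low in every member. Translocation tumour 5 had the highest Cd14 of all tumours, and its Ms4a7 (29.6 CPM) lay above every Rosa26 tumour. Rosa26 tumour 4 had the highest Laptm5, at 112 CPM, with Spi1 at 20.6 CPM, above the other Rosa26 tumours. In that tumour Cd163 rested on 2 counts.

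**Figure D3:**
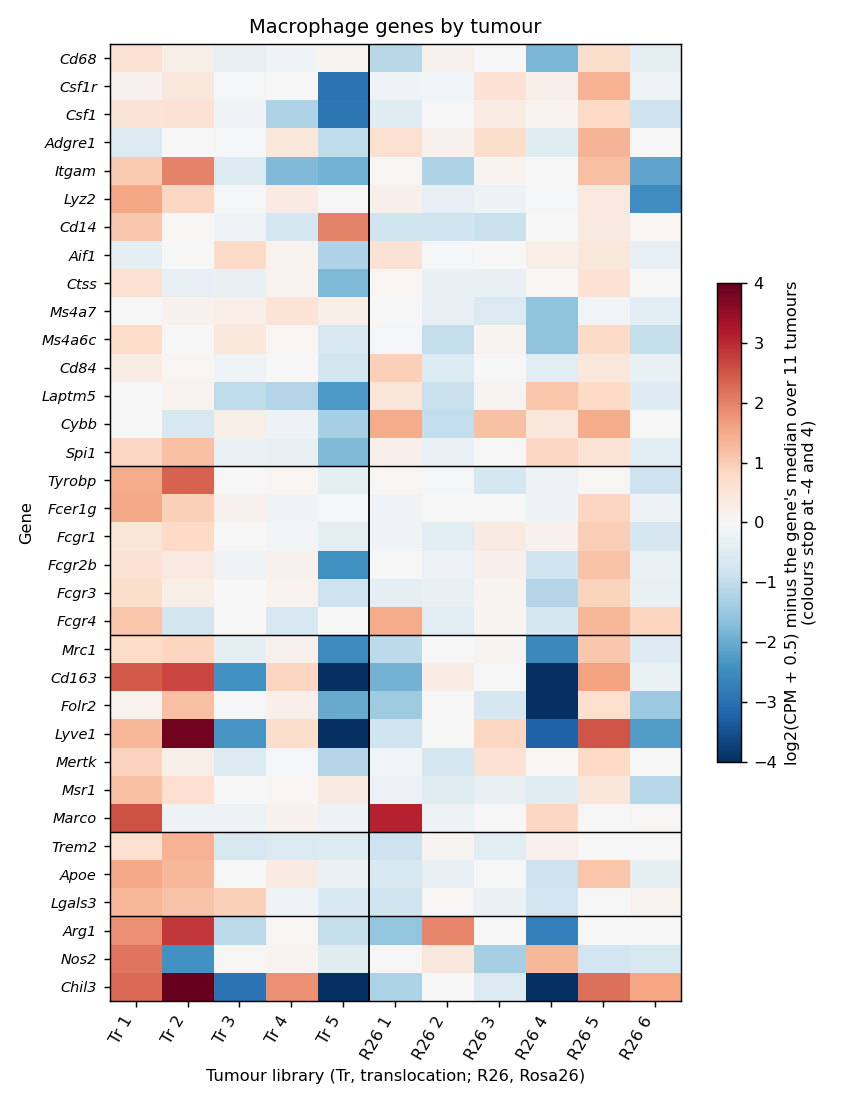
Each macrophage gene in each tumour, as log2(CPM + 0.5) minus the gene's median over the 11 tumours, with red for above and blue for below the median and colours that stop at -4 and 4. Columns are translocation tumours 1 to 5 and Rosa26 tumours 1 to 6; translocation tumour 5 and Rosa26 tumour 4 are blue for most resident and scavenger genes, and translocation tumours 1 and 2 and Rosa26 tumour 5 are red for most genes.

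The members differed in how far tumours of 1 genotype lay apart. The SD of log2 CPM within the groups, pooled over both, was 3.20 for Cd163, 3.06 for Chil3 and 2.62 for Lyve1, and 99.8%, 99.8% and 99.5% of all tested genes varied less. Arg1 had 1.66, Folr2 1.47, Itgam 1.44 and Mrc1 1.30. The steadiest members were Ms4a7 (0.449), Cd84, a signalling receptor of leukocytes (0.507), and Msr1 (0.514). The median SD was 0.82 over the members and 0.66 over all tested genes, and 6 of 33 members exceeded the 90th percentile of all genes. Cd163 ran from 0.350 CPM in Rosa26 tumour 4, on 2 counts, to 488 CPM in translocation tumour 2, and Lyve1 and Chil3 were also highest in translocation tumour 2.

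Ratios between members within a library do not depend on the library's total, and 10 members were set against Csf1r in this way. The log2 ratio of Apoe to Csf1r was 3.44, 2.94, 2.12, 2.40 and 4.79 in translocation tumours 1 to 5. In the Rosa26 tumours it was 1.07 at the lowest, 1.71 at the median and 1.92 at the highest, and in muscle 1.85. The groups did not overlap, with translocation tumour 5 highest. The means were 3.14 ± 1.05 (SD, n = 5) and 1.63 ± 0.31 (SD, n = 6), a difference of 1.503 on the log2 scale with p = 0.00216 by a two-sided exact permutation test over all 462 splits, the smallest p they can give, and 0.0216 after Benjamini-Hochberg adjustment over the 10 ratios. The call held without each translocation tumour and without Rosa26 tumour 1, and was lost without each of Rosa26 tumours 2 to 6 (exact permutation test, adjusted p = 0.0595 to 0.0794), where 5 tumours a group allow no p below 0.00794. Against Cd68 in place of Csf1r the difference for Apoe was 0.24 (exact permutation test, adjusted p = 1), and against Ctss it was 1.09 (exact permutation test, adjusted p = 0.13). Against Adgre1 it was 1.40 (exact permutation test, adjusted p = 0.0216). Exon length was 2138 bp for Apoe, 5774 bp for Csf1r, 3238 bp for Adgre1, 1358 bp for Ctss and 1257 bp for Cd68. Fold changes were lower in genes with longer exons, as given above, and the part of length in these ratios was not tested.

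The log2 ratio of Tyrobp to Csf1r was -0.45, 0.12, -1.73, -1.67 and 0.81 in the translocation tumours, and -3.09, -2.28 and -1.55 at the lowest, median and highest of the Rosa26 tumours. The groups overlapped, with translocation tumours 3 and 4 inside the Rosa26 range. The means were -0.59 ± 1.11 (SD, n = 5) and -2.33 ± 0.65 (SD, n = 6), a difference of 1.74 (two-sided exact permutation test, p = 0.00866, adjusted p = 0.0433). It was lost without translocation tumour 1, 2 or 5 (exact permutation test, adjusted p = 0.119 each), without each of Rosa26 tumours 2 to 6 (exact permutation test, adjusted p = 0.0595 to 0.106) and with Rosa26 tumours 5 and 6 summed (exact permutation test, adjusted p = 0.106). It was also lost against Cd68 (difference 0.48), Adgre1 (1.64) and Ctss (1.33) (exact permutation test, adjusted p = 1, 0.0758 and 0.0649). Mrc1 to Csf1r differed by 1.02 (exact permutation test, adjusted p = 0.0649), Cd68 by 1.26 (adjusted p = 0.162 by the same exact test), and Csf1, Cd163, Lyve1, Trem2, Arg1 and Fcgr4 by 0.13 to 1.69, none past the threshold. All 10 ratios share the Csf1r value of each library, which was lowest in translocation tumour 5. Tyrobp, at 667 bp, has shorter exons than Csf1r, and the part of length in its ratio was not tested.

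**Figure D4:**
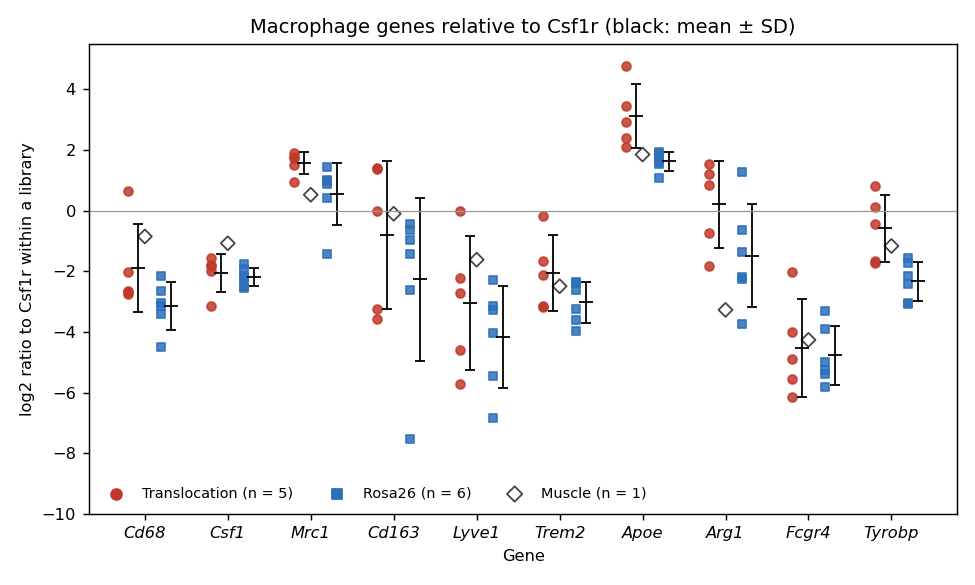
Log2 ratio of 10 macrophage genes to Csf1r within each library, with circles for translocation tumours (n = 5), squares for Rosa26 tumours (n = 6), open diamonds for muscle and black bars for the mean ± SD. Apoe shows no overlap between the tumour groups, Tyrobp overlaps in part, and Cd163 in Rosa26 tumour 4 lies lowest at -7.53.

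Around the members, 80 further genes of macrophage pathways were examined by list. Of these 74 were tested and 1 passed, where 2.7% of all genes tested did. Of 13 tested growth factors, receptors and transcription factors of the lineage, 0 passed, with 6 positive and 7 negative log2 fold changes. Csf2rb2, a receptor chain for interleukin-3, had a log2 fold change of 2.05 (edgeR adjusted p = 0.149). Of 14 tested genes of ITAM signalling, downstream of Tyrobp and Fcer1g, 0 passed. Their log2 fold changes were negative in 12 and positive in 2, with a median of -0.71, where 53.2% of all genes tested were positive. Sirpa, an inhibitory receptor, had -0.37 and the Src family kinase Lyn 0.22. Syk had -0.997 (edgeR adjusted p = 0.126) and the phospholipase Plcg2 -1.20 (edgeR adjusted p = 0.139), against 1.40 for Tyrobp. Syk and Plcg2 were chosen after their values were seen.

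Of 6 partners of Cybb in the oxidase, 0 passed. Cyba, the membrane partner of Cybb, was 157, 186, 101, 109.8 and 100.2 CPM in the translocation tumours and from 43.4 to 109.7 CPM in the Rosa26 tumours. Its log2 fold change was 1.13 ± 0.32 (edgeR adjusted p = 0.0686), against -1.10 for Cybb, and the GTPase Rac1 had -0.26. Of 11 tested genes of the resident programme 0 passed. Selenop, a selenium carrier, had 1.51 ± 0.56 (edgeR adjusted p = 0.128), and C1qa, a chain of complement C1q, had 0.24. Of 13 tested activation genes 0 passed, with Retnla at -0.21 and Mgl2, a lectin, at 0.61.

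Of 17 lipid handling and lysosome genes 1 rose and 0 fell, where 1.14% and 1.56% of all genes tested did. Their log2 fold changes were positive in 13 and negative in 4. Spp1, which encodes osteopontin, was 507, 60.4, 1564, 509 and 259.6 CPM in the translocation tumours, and 39.9, 66.3 and 167 CPM at the lowest, median and highest of the Rosa26 tumours. Translocation tumour 2 lay among the Rosa26 tumours and translocation tumour 3 was highest. The log2 fold change was 2.82 ± 0.68 (edgeR adjusted p = 0.0491), and the call was lost in 8 of the 11 fits that leave out 1 tumour: translocation tumours 1, 3 and 4 and Rosa26 tumours 2 to 6 (edgeR adjusted p = 0.0565 to 0.129). Spp1 and the other genes of this list are also made by tumour and stromal cells. Gpnmb had 4.36 (edgeR adjusted p = 0.084), where translocation tumour 5 alone held 477 CPM and no other tumour exceeded 28.9 CPM, and its group medians were 4.40 and 4.09 CPM. Plin2, which coats lipid droplets, had 1.10 (edgeR adjusted p = 0.0712) and Ctsl, a lysosomal protease, 1.48 (edgeR adjusted p = 0.0848), and these 3 were chosen after their values were seen.

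Markers of other blood cells were measured beside the members. The 5 monocyte markers summed to 92.8 to 725 CPM in the translocation tumours and to 333 to 1715 CPM in the Rosa26 tumours, with 1 positive and 4 negative log2 fold changes. Single genes made up the highest sums, with Vcan at 1666 CPM in Rosa26 tumour 2 and Plac8 at 718 CPM in translocation tumour 5. Ccr2, the receptor that brings monocytes into tissue, was 1.998 to 19.6 CPM in the translocation tumours and 3.31 to 56.7 CPM in the Rosa26 tumours, and Ly6c2 was at most 2.66 CPM. The 10 neutrophil markers summed to 109 CPM in each of translocation tumours 1 and 2 and to 5.28 to 42.0 CPM in the other tumours. Ly6g, which defines neutrophils, was at 0 in 9 of 11 tumours. The 7 dendritic cell markers summed to 15.8 to 45.7 CPM and 20.1 to 68.3 CPM in the translocation and Rosa26 tumours. Translocation tumours 1 and 2, highest in neutrophil markers, were also highest in Tyrobp, Trem2 and Apoe, and Tyrobp is expressed by neutrophils too. The part of those cells in these levels was not tested. The T-cell markers Cd3e and Trac, chosen after their values were seen, fell in the translocation tumours, by 4.93 (edgeR adjusted p = 0.0413) and 4.67 (edgeR adjusted p = 0.0498) on the log2 scale, and each call was lost without any 1 of the translocation tumours (edgeR adjusted p = 0.0537 to 0.0852). Without Rosa26 tumour 1, 3, 4, 5 or 6 neither gene passed the filter on low counts.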

How the data were processed

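RNA came from 11 mouse tumours and 1 muscle. Per the labels' protocols, total RNA went through an Illumina TruSeq stranded kit with Ribo-Zero Gold depletion. The deposited table holds whole-number counts per Ensembl gene, not normalized. Per the submitters' processing notes, mm10 was the build and the tools included featureCounts, RSEM, DESeq2, cutadapt and STAR 2.7.5a, in no stated order. The strand setting and the treatment of reads with several matches are not stated in those sources. Names, positions and exon lengths came from GENCODE M21.

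Tumours were compared with edgeR 4.0.16 in R 4.3.3 (TMM, filterByExpr with a minimum count of 10, robust quasi-likelihood test, Benjamini-Hochberg adjustment over 17021 genes), without the muscle. Printed CPM are scaled over all 12 libraries, and fold changes come from the 11 tumours. Ratios used log2(CPM + 0.5) and an exact permutation test over tumours. The calculations were tested on simulated counts. Alternatives included DESeq2 1.42.0, limma 3.58.1 voom, other filters, sex as a covariate, Rosa26 tumours 5 and 6 summed and each tumour left out. Adgre1 and Ctss as denominators, CPM without scaling factors, and, for ratios and muscle, leaving out translocation tumours 2 and 5 and Rosa26 tumour 4 were added after seeing the data. A count of 0 was given a limit of 3 counts.

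The members and lists were chosen with earlier results of these data known. All members are named. Of each pathway list, genes past the threshold are named or, with none, the 2 with the highest mean CPM per kilobase; others are marked as chosen after their values were seen. Of the genes so named, 1 is not reported here. Replicate numbers pair nothing. Limits for a count of 0 cover counting error only, while errors of fold changes include the spread between libraries.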

Additional observations from a re-analysis of the deposited data

Results flagged for a closer look

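In 9 of 86 sets of values (each member and each ratio in each tumour group), 1 tumour lay farther from the rest of its group than Dixon's limit allows, and chance alone gives about 5% of such sets. Translocation tumour 5 was flagged for its low Csf1r (17.2 CPM), low Fcgr2b (17.1 CPM) and high log2 ratio of Cd68 to Csf1r (0.64). Translocation tumour 4 was flagged for its low log2 ratio of Csf1 to Csf1r (-3.14). Rosa26 tumour 4 was flagged for its low Ms4a7 (7.87 CPM) and for low log2 ratios to Csf1r of Mrc1 (-1.44) and Cd163 (-7.53). Rosa26 tumour 6 was flagged for low Lyz2 (49.9 CPM), and Rosa26 tumour 5 for high Fcer1g (28.8 CPM).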

How the results depend on the processing

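The count of 0 members past the threshold became 1 with the DESeq2 Wald test (Tyrobp), 2 with limma voom (Tyrobp and Ms4a7) and 1 with sex as a covariate (Laptm5), and was 0 in all other fits, each leave-one-out fit included. The median log2 fold change of the members ran from 0.08 to 0.64 over the leave-one-out fits. Over all genes the 460 calls ran from 63 to 744 over those fits, with 2439 by DESeq2, 2651 by voom, 2534 with sex as a covariate and 91 with Rosa26 tumours 5 and 6 summed. Of the 18 members above muscle, 10 passed at 4-fold, where 2.11% of all genes did. The 1 member below muscle became 0 at 4-fold and 0 without scaling factors, where 24 members lay above muscle (15.6% of all genes). The 2 ratios to Csf1r past the threshold became 0 with Cd68 as the denominator, 0 with Ctss, 1 with Adgre1, 0 with Rosa26 tumours 5 and 6 summed, 0 without translocation tumours 2 and 5 and Rosa26 tumour 4, and 0 to 2 with each tumour left out.

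Signs turned for values that passed no test, and the cause was not tested. With voom the log2 fold changes of Aif1, Ctss, Cd84, Fcgr2b and Trem2 were 0.26, 0.095, 0.12, 0.15 and -0.0084. With sex as a covariate Itgam had -0.051 and Spi1 -0.62. Without translocation tumours 2 and 5 and Rosa26 tumour 4, Aif1, Ctss, Lyve1 and Mertk had 0.12, 0.21, -0.33 and 0.073. With each tumour left out in turn, the sign was not fixed for Csf1 (-0.51 to 0.036), Itgam (-0.27 to 1.04), Aif1 (-0.45 to 0.050), Ctss (-0.44 to 0.097), Cd84 (-0.28 to 0.096), Spi1 (-0.29 to 0.35), Fcgr1 (-0.070 to 0.37), Fcgr2b (-0.30 to 0.22), Lyve1 (-0.48 to 2.46), Mertk (-0.47 to 0.10) and Nos2 (-0.53 to 1.21). With Cd68 as the denominator the differences for Csf1, Mrc1, Lyve1, Trem2 and Fcgr4 were -1.13, -0.24, -0.14, -0.29 and -1.0013. With Ctss those for Csf1 and Fcgr4 were -0.29 and -0.16, and Fcgr4 to Csf1r ran from -0.37 to 0.66 with each tumour left out and had -0.25 without the 3 tumours.

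Whether libraries came from separate animals is not known, the sexes were unequal between the groups, and 1 muscle library gives no spread. No paired analysis was possible because the replicate numbers were given in sample order and mark no shared animal or batch. Depth limits Marco, Nos2 and the low tumours of Cd163, Chil3 and Lyve1.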
